A study of Mus musculus with 6 samples.

Results

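Serine synthesis and the mitochondrial branch of one-carbon metabolism were followed through 8 genes, Phgdh, Psat1, Psph, Shmt1, Shmt2, Mthfd2, Mthfd1l and Aldh1l2, in cardiomyocytes whose hearts had received a transcription factor of the unfolded protein response. The genes were taken by symbol from the count table, where they are 8 of 23337 genes. All 8 passed the filter on low counts, and the lowest count of any of them in any library was 18. The RNA, polyadenylated, came from heart muscle cells of wild-type mice. Each mouse was injected on postnatal day 1 with an adeno-associated virus, AAV for short. The virus carried GFP as the control, XBP1S (by its usual meaning XBP1 in its spliced, active form) or ATF6N (by its usual meaning the nuclear fragment of ATF6), and each group had 2 libraries. At 4 weeks of age the cells were freed by Langendorff perfusion, in which enzyme enters the heart through its vessels, and purified by fluorescence-activated sorting. All 3 groups thus share the virus, the isolation and the sort. No source used here gives the promoter that drove each cargo, the number of animals per library or their sex.

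Cells make serine from the glycolytic intermediate 3-phosphoglycerate in the order Phgdh, Psat1, Psph. Serine hydroxymethyltransferases, Shmt1 in the cytosol and Shmt2 in mitochondria, then split serine into glycine and a one-carbon unit bound to tetrahydrofolate. In mitochondria Mthfd2 oxidises that unit, Mthfd1l releases it as formate for purine and thymidylate synthesis in the cytosol, and Aldh1l2 burns it to carbon dioxide with formation of NADPH. Several of these genes are known targets of ATF4, the transcription factor of the PERK arm of the unfolded protein response, and heart muscle with failing mitochondria is known to switch them on. XBP1 and ATF6 are the factors of the other arms.

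Total counts ran from 67702482 to 112049342 per library. The labels do not say that the 2 libraries of a group came from separate animals, so p-values speak only for the spread of these samples, and that spread may be technical. Libraries of a group differed beyond counting noise, most in AAV-GFP (chi-square per degree of freedom 678) and least in AAV-ATF6N (11.1). AAV-GFP replicate 1 lay far from the rest on principal component 1 (43.9% of variance) and had 0.337% of its counts on the ribosomal RNA precursor Rn45s, against at most 0.130% in the others. The 6 cardiomyocyte markers (Myh6, Tnnt2, Tnni3, Actn2, Ryr2 and Pln) were present in every library, and their sums did not overlap between groups. They summed to 72082 to 73275 CPM in AAV-GFP, 57757 to 68712 in AAV-XBP1S and 95062 to 95295 in AAV-ATF6N. Singly, 1 of the 6 had a log2 fold change above 0 over AAV-GFP in AAV-XBP1S (median -0.17) and 3 in AAV-ATF6N (median 0.0042). Xist, which the inactive X chromosome of female cells transcribes, and Y-linked Ddx3y followed the groups: Xist stood at 20.2 and 43.1 CPM in AAV-XBP1S and at most 0.197 CPM in AAV-ATF6N, Ddx3y at 0.0215 CPM or less in AAV-XBP1S and at least 89.7 CPM in AAV-ATF6N, and both were present in each AAV-GFP library. The sex of the animals and the cargo cannot be told apart between AAV-XBP1S and AAV-ATF6N. The mix in AAV-GFP, Xist at 24.6 and 7.88 CPM and Ddx3y at 11.6 and 21.0 CPM, was that of neither treated group. Sex make-up and cargo thus cannot be told apart in the comparisons with AAV-GFP either. CPM are counts scaled to the library size, per 1000000, after TMM normalization. Each log2 fold change is given with the fit's standard error (SE), and a gene is said to rise or fall only where the adjusted p of edgeR's quasi-likelihood test was below 0.05 over all 14587 genes tested.

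Heart muscle cells expressed the 8 genes at very unequal levels, and mitochondrial Shmt2 led them in every library. In CPM per kilobase of exon (RPKM), which allows genes to be compared, Shmt2 stood at 35.1 ± 3.11 (SD, n = 2) in AAV-GFP, 26.7 ± 1.53 in AAV-XBP1S and 33.0 ± 2.84 in AAV-ATF6N. It made up 49.2% to 69.2% of the RPKM sum of the 8 genes. In AAV-GFP the order below it was Psph (7.88 RPKM), Shmt1 (4.80), Aldh1l2 (2.38), Mthfd2 (1.08), Psat1 (0.661), Mthfd1l (0.330) and Phgdh (0.182), where Aldh1l2 overlapped Mthfd2 and Mthfd1l overlapped Phgdh between libraries. Phgdh had the lowest group mean of the 8 in the control cells, with Mthfd1l overlapping it. In AAV-XBP1S the order was Psph (7.31 RPKM), Shmt1 (7.04), Aldh1l2 (2.74), Psat1 (2.06), Mthfd2 (1.43), Phgdh (0.461) and Mthfd1l (0.248), with overlap of Psph with Shmt1 and of Aldh1l2 with both Psat1 and Mthfd2. In AAV-ATF6N, Shmt1 (14.3 RPKM) stood above Psph (7.23), followed by Aldh1l2 (4.14), Mthfd2 (2.19), Phgdh (1.70), Psat1 (1.56) and Mthfd1l (0.251), with overlap of Phgdh with Psat1 only.

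**Figure D1:**
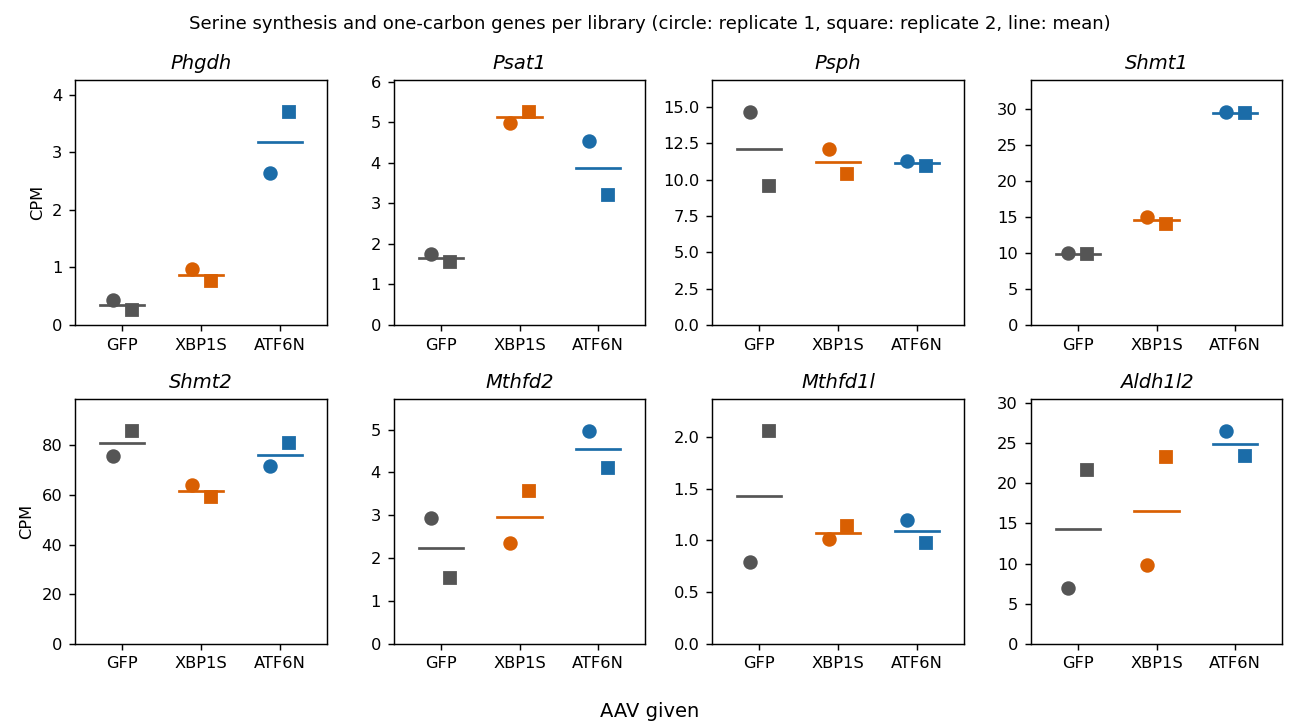
CPM (y axis, linear from 0, own scale per panel) of each of the 8 genes in the 6 libraries, by the AAV given (x axis). Circles are replicate 1, squares replicate 2 and lines group means. Phgdh and Shmt1 are lowest in GFP and highest in ATF6N, Psat1 is high in both treated groups, and Aldh1l2 is low in replicate 1 of GFP and XBP1S.

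Phgdh, phosphoglycerate dehydrogenase, the enzyme that commits 3-phosphoglycerate to serine, had its lowest values in AAV-GFP and its highest in AAV-ATF6N. It lies on the minus strand of chromosome 3 (mm10, 98313171 to 98339969). Phgdh stood at 0.427 and 0.253 CPM in AAV-GFP, 0.967 and 0.758 CPM in AAV-XBP1S and 2.64 and 3.71 CPM in AAV-ATF6N (42 and 18, 90 and 62, and 214 and 242 counts). The 3 groups did not overlap, so the libraries were in the same order in every comparison. The fitted difference of AAV-ATF6N from AAV-GFP was 3.21 on the log2 scale (SE 0.47, 95% interval 2.08 to 4.33), or 9.22-fold, and its adjusted p of 0.0529 fell just outside the threshold. AAV-XBP1S had a log2 fold change of 1.33 (SE 0.45, interval 0.25 to 2.42, adjusted p = 0.357). The difference in AAV-ATF6N passed under 6 of 12 alternative settings, among them DESeq2 (adjusted p = 3.75e-07) and the fits without either AAV-GFP library (3.64, adjusted p = 0.0451 without replicate 1, and 2.90, adjusted p = 0.0288 without replicate 2). In the fit without replicate 1, 0.709% of all genes passed, and in that without replicate 2, 20.0% (3055 of 15274), beside 0.514% (75 genes) as reported. Over all 12 the log2 fold change ran from 2.90 to 3.64 and the adjusted p from 3.75e-07 to 0.53. The annotation also holds a processed pseudogene of Phgdh, and reads shared with it could not be followed in the counts.

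Psat1, the phosphoserine aminotransferase of the following step, stood higher in both treated groups, and highest in AAV-XBP1S. The gene is on the minus strand of chromosome 19 (15905123 to 15925059). Its levels were 1.75 and 1.54 CPM in AAV-GFP, 4.99 and 5.26 CPM in AAV-XBP1S and 4.53 and 3.22 CPM in AAV-ATF6N. Both treated groups lay above AAV-GFP in both libraries, and both AAV-XBP1S libraries above both of AAV-ATF6N. Over AAV-GFP its log2 fold change was 1.64 (SE 0.30, interval 0.92 to 2.35) in AAV-XBP1S, or 3.11-fold, with an adjusted p of 0.111, and 1.23 (SE 0.30, interval 0.52 to 1.95) in AAV-ATF6N, or 2.35-fold, with 0.194. Neither passed as fitted here. In AAV-XBP1S it passed under 3 of 12 alternatives, DESeq2 (0.000613), no filter on low counts (0.025) and a gene-length offset (0.0471), with a range of adjusted p from 0.000613 to 0.668 and of log2 fold change from 1.58 to 1.73.

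Psph, the phosphatase that completes serine synthesis, showed no shift that the test picked up. It lies on chromosome 5 (129765558 to 129787253, minus strand). Its levels were 14.7 and 9.55 CPM in AAV-GFP, 12.1 and 10.4 CPM in AAV-XBP1S and 11.3 and 10.9 CPM in AAV-ATF6N. The AAV-GFP libraries spanned all the others. Its log2 fold change from AAV-GFP was -0.11 (interval -0.75 to 0.53) in AAV-XBP1S and -0.12 (interval -0.77 to 0.52) in AAV-ATF6N, with adjusted p of 0.890 and 0.817. Both signs turned with a gene-length offset, to 0.065 and 0.17. Its exons share 256 bases with Cct6a on the opposite strand, and the library kits do not mark strand, so reads there cannot be told apart.

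Of the first pair of enzymes, Phgdh took a larger share in the AAV-ATF6N libraries. Per base of exon, Phgdh made up 24.5% and 17.9% of the Phgdh and Psat1 sum in the AAV-GFP libraries, 20.5% and 16.1% in those of AAV-XBP1S, and 43.6% and 60.5% in those of AAV-ATF6N. The shares of AAV-GFP and AAV-XBP1S overlapped, and both AAV-ATF6N libraries lay above all others. Such a share is read within a library and does not depend on how libraries are scaled to each other. It does not remove a trend with gene length. A curve of log2 level against gene length, fitted to all genes of AAV-GFP replicate 1, stood at 0.19 for Phgdh and -0.03 for Psat1. The AAV-GFP shares rest on 42 and 18 Phgdh counts.

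Shmt1, the cytosolic serine hydroxymethyltransferase, was the gene of the 8 that rose in AAV-ATF6N. It is encoded on the minus strand of chromosome 11 (60788897 to 60811265). Shmt1 stood at 9.94 and 9.90 CPM in AAV-GFP, 15.0 and 14.0 CPM in AAV-XBP1S and 29.6 and 29.4 CPM in AAV-ATF6N. Libraries of a group were close to each other and the 3 groups did not overlap. The log2 fold change in AAV-ATF6N was 1.57 (SE 0.20, interval 1.10 to 2.05), or 2.97-fold, with an adjusted p of 0.0357. In AAV-XBP1S it was 0.55 (SE 0.20, interval 0.08 to 1.02), or 1.46-fold, with 0.373. The AAV-ATF6N value stayed between 1.57 and 1.69 over 12 alternatives, with adjusted p from 3.98e-09 to 0.444. It passed in 7 of them and missed with only the libraries compared (0.132), without AAV-XBP1S replicate 1 (0.119) or 2 (0.122) and without AAV-ATF6N replicate 1 (0.417) or 2 (0.444), while without AAV-GFP replicate 1 it was 1.57 (0.0428).

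Shmt2, its mitochondrial counterpart on chromosome 10 (127517123 to 127522444, minus strand), did not pass in any comparison. Its levels were 75.8 and 85.9 CPM in AAV-GFP, 64.1 and 59.1 CPM in AAV-XBP1S and 71.4 and 80.7 CPM in AAV-ATF6N. AAV-XBP1S lay below both other groups, and AAV-ATF6N overlapped AAV-GFP. Relative to AAV-GFP its log2 fold change was -0.39 (interval -0.86 to 0.07, adjusted p = 0.502) in AAV-XBP1S and -0.09 (interval -0.55 to 0.38, adjusted p = 0.822) in AAV-ATF6N. Its exons overlap those of Ndufa4l2 on the opposite strand by 34 bases.

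The share of the cytosolic enzyme in both was separate in each group. Shmt1 made up 12.8% and 11.4% of the sum of both, per base of exon, in the AAV-GFP libraries, 20.8% and 20.9% in those of AAV-XBP1S and 31.6% and 28.9% in those of AAV-ATF6N. No 2 groups overlapped, and the group means were 12.1% ± 0.969 (SD, n = 2), 20.8% ± 0.129 and 30.3% ± 1.94. No test was run on these shares.

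**Figure D2:**
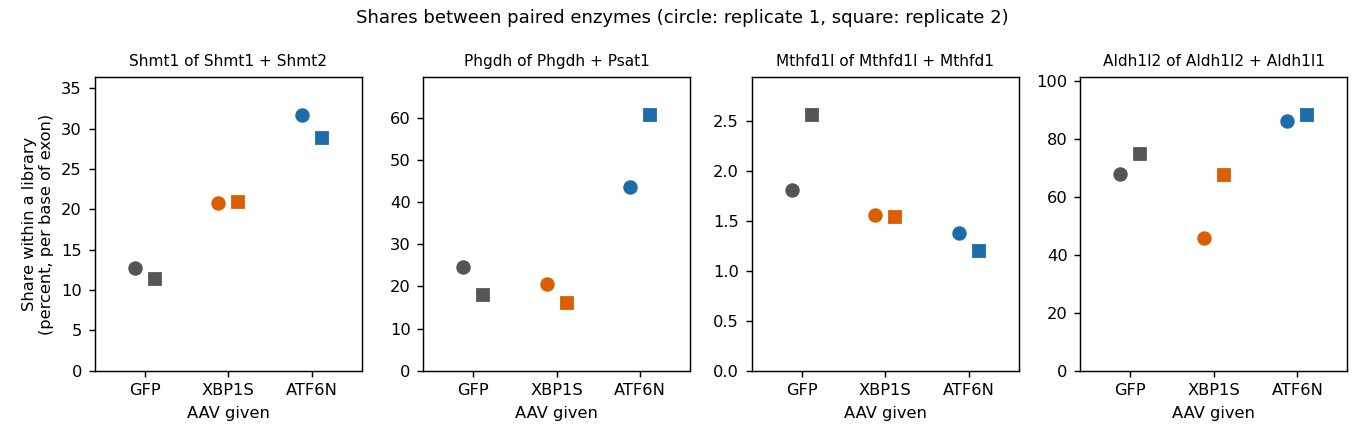
Share of the first-named enzyme in the sum of a pair within each library (y axis, percent, per base of exon, from 0), by the AAV given (x axis). Circles are replicate 1 and squares replicate 2. The Shmt1 share runs from 11.4% to 31.6% with no overlap of groups, and the Phgdh share is highest in the ATF6N libraries.

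The 250 bases before the annotated starts of Phgdh, Psat1 and Shmt1, the 3 genes that lay above AAV-GFP in both libraries of both treated groups, are printed because XBP1 and ATF6 are known to act through elements built of a CCAAT part, where NF-Y binds, and a CCACG part. RefSeq windows (GRCm38.p6, the patch release of mm10) run 5′ to 3′ on the gene's minus strand. Capitals mark 3 short motifs: CCAAT (on the other strand ATTGG), the part CCACG (on the other strand CGTGG) and the half-site TGACG (on the other strand CGTCA). The windows are chr3:98339970-98340219 for Phgdh, chr19:15925060-15925309 for Psat1 and chr11:60811266-60811515 for Shmt1.
Phgdh: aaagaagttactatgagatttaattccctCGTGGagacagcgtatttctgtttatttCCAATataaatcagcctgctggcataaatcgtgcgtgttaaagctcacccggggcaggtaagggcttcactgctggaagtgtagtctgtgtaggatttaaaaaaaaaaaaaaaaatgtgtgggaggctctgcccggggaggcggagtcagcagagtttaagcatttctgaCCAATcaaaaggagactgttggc
Psat1: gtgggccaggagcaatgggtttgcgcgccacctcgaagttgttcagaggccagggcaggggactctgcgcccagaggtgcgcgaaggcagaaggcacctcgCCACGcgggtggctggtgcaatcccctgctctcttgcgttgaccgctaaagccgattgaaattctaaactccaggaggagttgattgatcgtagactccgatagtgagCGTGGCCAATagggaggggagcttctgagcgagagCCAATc
Shmt1: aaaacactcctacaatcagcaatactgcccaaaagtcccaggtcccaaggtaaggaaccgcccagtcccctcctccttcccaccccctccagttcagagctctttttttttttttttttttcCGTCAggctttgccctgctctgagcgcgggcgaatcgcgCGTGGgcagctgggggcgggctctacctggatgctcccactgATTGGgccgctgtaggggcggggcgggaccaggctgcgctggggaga
Counted back from the start, with -1 as the base before it, Phgdh holds CCAAT from -193 to -189 and from -23 to -19 and CGTGG from -221 to -217. In Psat1, CGTGG from -41 to -37 runs directly into CCAAT from -36 to -32, and a further CCAAT lies from -6 to -2 and CCACG from -149 to -145. Shmt1 holds CGTCA from -128 to -124, CGTGG from -89 to -85 and ATTGG from -47 to -43. A window of 300 bases (250 before and 50 after the start) was found for 7 of the 8 genes, with Aldh1l2 unmatched. Psat1 has another window from a start further into the gene, which is not printed, so the 7 genes have 8 windows. CCAAT occurred in windows of 5 of the 7 genes against 37.4% of all 32851 windows, CCACG in 6 against 32.8%, and TGACG, which is also contained in the XBP1 and CRE motifs, in 3 against 20.8%. A gene was counted if any window of it held the motif, whereas the shares are per window, and per window the members had 5, 7 and 3 of 8. These 3 short motifs were added after the longer ones had been searched. None of the 7 genes held, on either strand, the full element ERSE, CCAAT followed after 9 bases by CCACG (0.119% of all windows), its second form ERSE-II, ATTGG followed after 1 base by CCACG (0.0365%), the XBP1 motif TGACGTGG (0.676%), the CRE TGACGTCA (1.79%), the ATF4 composite motif TGATGNAA (3.97%) or the E-box CACGTG (7.15%). A match is a run of letters and not a measured binding site, and a missing match says only that these letters are not in this window.

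Downstream of Shmt2, the mitochondrial folate enzymes gave less even data. Mthfd2, the dehydrogenase and cyclohydrolase on chromosome 6 (83305704 to 83317604, minus strand), stood at 2.95 and 1.53 CPM in AAV-GFP, 2.36 and 3.57 CPM in AAV-XBP1S and 4.98 and 4.10 CPM in AAV-ATF6N. Both AAV-ATF6N libraries lay above all others, whereas AAV-GFP and AAV-XBP1S overlapped. Its log2 fold change was 1.02 in AAV-ATF6N (SE 0.41, interval 0.04 to 1.99, adjusted p = 0.359) and 0.40 in AAV-XBP1S (SE 0.41, interval -0.57 to 1.37, adjusted p = 0.723). The value moved with the control library: without AAV-GFP replicate 1 the AAV-ATF6N value was 1.57, and over all alternatives it ran from 0.64 to 1.57.

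Mthfd1l, the formate-releasing enzyme on the plus strand of chromosome 10 (3973075 to 4167081), was low throughout. Its levels were 0.793 and 2.06 CPM in AAV-GFP, 1.01 and 1.14 CPM in AAV-XBP1S and 1.20 and 0.980 CPM in AAV-ATF6N. The AAV-GFP libraries bracketed the other 4. Against AAV-GFP its log2 fold change was -0.41 (interval -1.70 to 0.89) in AAV-XBP1S and -0.39 (interval -1.68 to 0.91) in AAV-ATF6N, with adjusted p of 0.786 and 0.709. Its cytosolic relative Mthfd1, named here after its values were seen, was far more abundant, and Mthfd1l made up 1.20% to 2.55% of the sum of both per base of exon.

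Aldh1l2, which oxidises the formyl unit of folate in mitochondria, varied widely between the libraries of AAV-GFP and of AAV-XBP1S. The gene is on the minus strand of chromosome 10 (83487447 to 83534140). It stood at 6.96 and 21.7 CPM in AAV-GFP, 9.85 and 23.2 CPM in AAV-XBP1S and 26.6 and 23.3 CPM in AAV-ATF6N. Replicate 1 was the low library in both AAV-GFP and AAV-XBP1S, and the AAV-ATF6N libraries lay above all others, in replicate 2 by little. The log2 fold change was 0.21 (interval -1.18 to 1.60, adjusted p = 0.903) in AAV-XBP1S and 0.80 (interval -0.60 to 2.20, adjusted p = 0.485) in AAV-ATF6N. Without AAV-GFP replicate 1 these were -0.40 and 0.20, and without AAV-GFP replicate 2 they were 1.29 and 1.85 (adjusted p = 0.146 and 0.0531). The same 2 libraries had the most Rn45s counts, and Aldh1l2 has the longest exon length of the 8 genes (6030 bases). At that length a curve of log2 level against gene length, fitted to all genes of a library, stood at -0.35 in AAV-GFP replicate 1 and -0.21 in AAV-XBP1S replicate 1, against 0.04 to 0.24 in the other 4. The part of RNA quality in these values was not tested beyond the gene-length offset. Of its exon bases 1059 are shared with D10Wsu102e on the opposite strand.

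Set against its cytosolic counterpart Aldh1l1, Aldh1l2 made up 67.7% and 74.7% of their sum in the AAV-GFP libraries, 45.9% and 67.4% in those of AAV-XBP1S and 86.2% and 88.0% in those of AAV-ATF6N. Both AAV-ATF6N libraries lay above all others. Both AAV-XBP1S libraries lay below both AAV-GFP libraries, by little at 67.4% against 67.7%. A share does not remove the trend with gene length, and Aldh1l2 has 6030 exon bases against 3084 in Aldh1l1. Aldh1l1 itself stood highest in AAV-XBP1S (5.83 ± 0.142 CPM, SD, n = 2), with 2.73 ± 1.46 CPM in AAV-GFP and 1.90 ± 0.386 CPM in AAV-ATF6N, and its log2 fold change of AAV-ATF6N against AAV-XBP1S was -1.62 (adjusted p = 0.172).

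**Figure D3:**
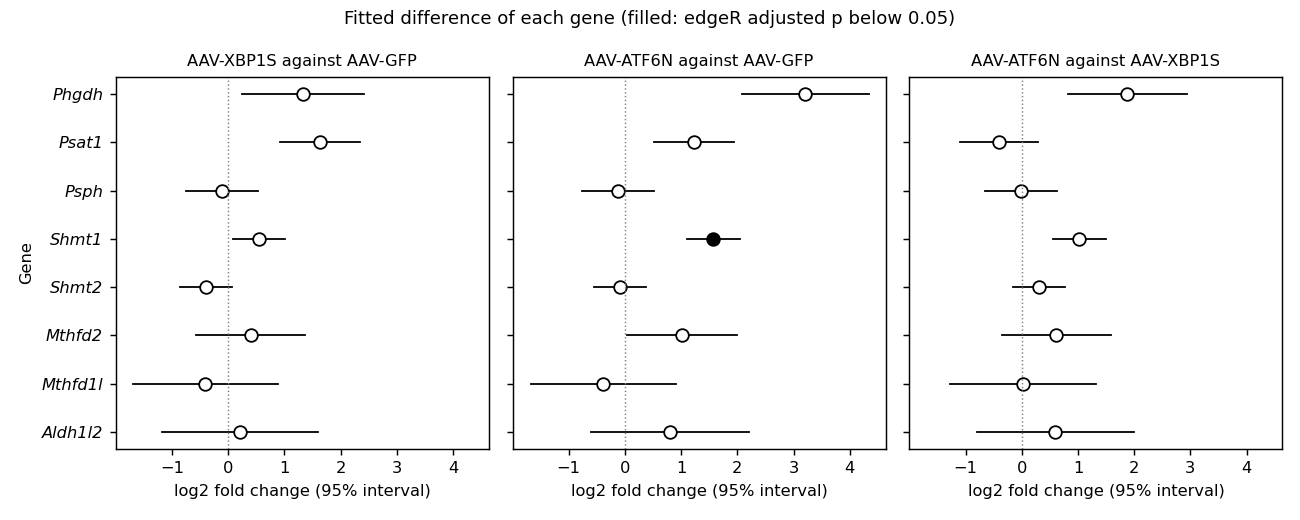
Fitted log2 fold change (x axis) of each of the 8 genes (y axis) in the 3 comparisons, with 95% intervals as bars; filled points have an edgeR adjusted p below 0.05. Shmt1 in ATF6N against GFP is the filled point, Phgdh lies farthest right in the same panel at 3.21, and the intervals of Psph, Shmt2, Mthfd1l and Aldh1l2 include 0 in all panels.

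Counted over the 8 genes, AAV-XBP1S against AAV-GFP gave 0 that passed, where 0.315% of all genes tested did (46 genes, 0.178% higher). Both AAV-XBP1S libraries lay above both AAV-GFP libraries for 3 of the 8, Phgdh, Psat1 and Shmt1, and below them for Shmt2, against 19.1% and 16.8% of all genes. The median log2 fold change of the 8 was 0.30, and that of all genes -0.01. Leaving out one AAV-XBP1S library gave a median of 0.63 (replicate 1 left out) or 0.046 (replicate 2 left out), and it was 0.53 without AAV-GFP replicate 2. Unadjusted p was below 0.05 for 3 of the 8 genes, against 11.6% of all genes. By DESeq2 1 of them, Psat1, passed, with 2.10% of all genes higher by that test, and without the filter on low counts it was Psat1 too, where 1.26% of all genes passed. With a gene-length offset it was again Psat1, with 0.898% of all genes higher.

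In AAV-ATF6N against AAV-GFP 1 of the 8 passed, Shmt1, where 0.514% of all genes did (75 genes, 0.350% higher). Both libraries lay above AAV-GFP for 5 of the 8, Phgdh, Psat1, Shmt1, Mthfd2 and Aldh1l2, against 27.9% of all genes, and for 0 of the 8 below, against 26.7%. The median log2 fold change of the 8 was 0.91, beside -0.02 for all genes. Unadjusted p was below 0.05 for 4 of the 8, against 13.5% of all genes. DESeq2 called 3, Phgdh, Psat1 and Shmt1, where it called 2.47% of all genes higher. With a gene-length offset Phgdh and Shmt1 passed, with 0.884% of all genes higher. The median of the 8 was 0.77 without AAV-GFP replicate 1 and 0.90 without AAV-GFP replicate 2. The counts against AAV-GFP in both treated groups share the same control libraries.

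Direct comparison of AAV-ATF6N with AAV-XBP1S put Phgdh and Shmt1 higher in AAV-ATF6N and Psat1 lower, none past the threshold. The log2 difference was 1.87 (SE 0.44, interval 0.82 to 2.93, adjusted p = 0.139) for Phgdh, 1.02 (SE 0.20, interval 0.55 to 1.49, adjusted p = 0.0918) for Shmt1 and -0.40 (SE 0.29, interval -1.10 to 0.29, adjusted p = 0.618) for Psat1. Of the 8 genes 0 passed in edgeR's test, 2 had an unadjusted p below 0.05 (13.2% of all genes did), and 0.226% of all genes passed (33 genes, 0.171% higher). Both AAV-ATF6N libraries lay above both AAV-XBP1S libraries for 5 of the 8 (Phgdh, Shmt1, Shmt2, Mthfd2 and Aldh1l2), against 30.1% of all genes, and below for Psat1, against 26.8%. The median log2 difference of the 8 was 0.45, and 0.18 without AAV-XBP1S replicate 1. Phgdh and Shmt1 passed with DESeq2 (adjusted p = 0.00842 and 0.000652, with 2.20% of all genes higher), with only the libraries compared (0.0389 and 0.0304) and without AAV-GFP replicate 1 (0.0377 and 0.028) or 2 (0.0395 and 0.0318). In these last 3 fits 4.62%, 4.75% and 4.27% of all genes passed. With a gene-length offset Shmt1 passed (0.018), with 1.53% of all genes higher. Over all alternatives the adjusted p ran from 0.00842 to 0.987 for Phgdh and from 0.000652 to 0.876 for Shmt1. The log2 differences ran from 1.61 to 2.10 for Phgdh and from 0.97 to 1.05 for Shmt1.

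**Figure D4:**
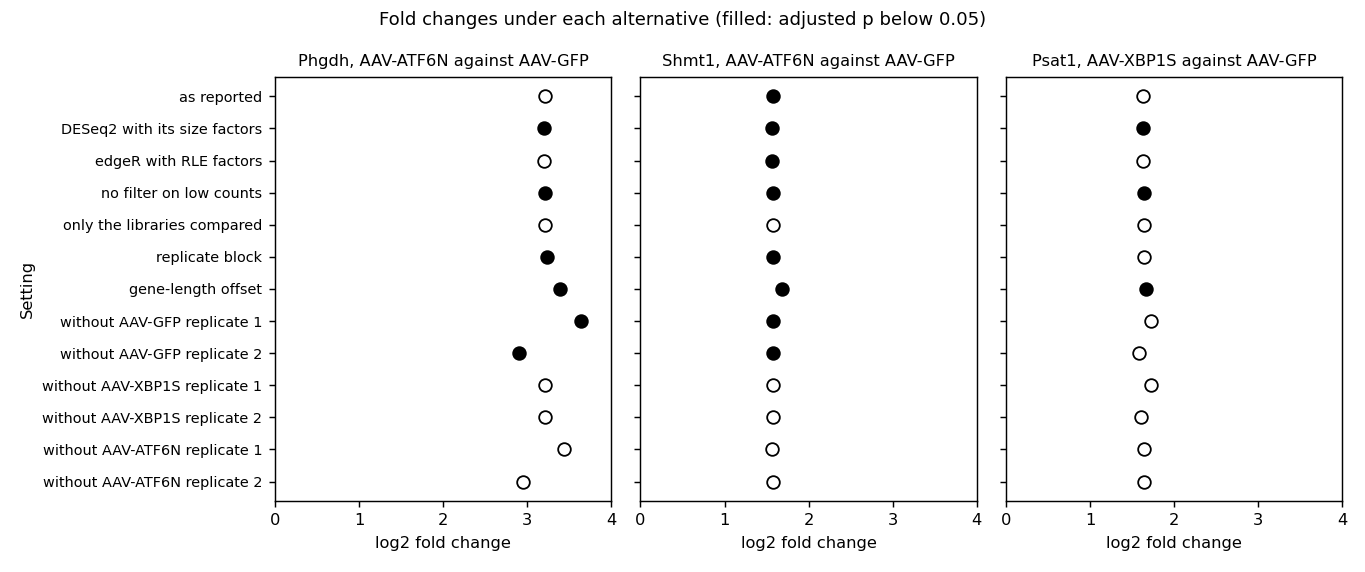
Log2 fold changes (x axis) of the gene and comparison named above each panel under each alternative setting (y axis); filled points have an adjusted p below 0.05. The Shmt1 value in ATF6N against GFP stays between 1.57 and 1.69, and that of Phgdh between 2.90 and 3.64.

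The authors' deposited table for AAV-ATF6N against AAV-GFP, whose header columns are those of DESeq2, lists Phgdh at a log2 fold change of 3.22 (adjusted p = 7.95e-06) and Shmt1 at 1.58 (adjusted p = 8.83e-05), and 2.71% of its genes with an adjusted p have one below 0.05. Psat1, Mthfd2 and Aldh1l2 have an adjusted p of 0.157, 0.296 and 0.407 in the authors' deposited table. For AAV-XBP1S, the authors' deposited table lists Psat1 at a log2 fold change of 1.63 (adjusted p = 0.0433), with 1.31% of genes below 0.05. Phgdh has a log2 fold change of 1.33 (adjusted p = 0.894) there and Shmt1 0.54 (adjusted p = 0.926).

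The genes whose pattern over the 6 libraries was nearest to each enzyme were found by the root mean square difference of log2 CPM after centring, among 8959 or 8960 other genes of at least 5 CPM. For Phgdh they were Sdf2l1 (0.37) and Manf (0.39), both known as endoplasmic reticulum (ER) stress genes. Sdf2l1 stood at 18.1 and 12.3 CPM in AAV-GFP, 77.5 and 56.4 CPM in AAV-XBP1S and 153 and 166 CPM in AAV-ATF6N, the same order of groups as Phgdh. Psat1 was nearest to Hspa1a (0.19), the inducible cytosolic heat shock protein, at 26.9 and 23.8, 98.1 and 102 and 63.2 and 52.9 CPM, and to Cul4b (0.23). Like Psat1, Hspa1a was highest in AAV-XBP1S. Shmt1 was nearest to the immediate early gene Fos (0.10), at 114 and 99.2, 187 and 166 and 348 and 347 CPM, and to Maged2 (0.14). Mthfd2 was nearest to Ranbp9 (0.11) and Dmd (0.21), Mthfd1l to Klhl25 (0.11) and Stc1 (0.16), Psph to Ttc35 and Glrx (0.04 each), and Shmt2 to Agap1 and Ppp5c (0.05 each). Aldh1l2 had Abcc9 (0.04) and Stag2 (0.07) beside it, both low in the same 2 replicate 1 libraries. Between members the smallest difference was 0.28, for Psph and Shmt2, and the largest 1.53, for Phgdh and Mthfd1l. Small values are easier to reach for genes that vary little, so the distances are a description over 6 libraries and not a test. Because the neighbours were chosen for their closeness, a shared order of groups or libraries follows from that choice.

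Transcripts of the factors were counted as well. Atf4 stood at 58.9 ± 23.1 CPM (SD, n = 2) in AAV-GFP, 51.4 ± 10.6 in AAV-XBP1S and 54.5 ± 3.98 in AAV-ATF6N, with log2 fold changes over AAV-GFP of -0.20 and -0.11 that did not pass, and the latter turned to 0.13 with a gene-length offset. ATF4 is known to be controlled at translation, which RNA levels do not show. The table counts reads on Xbp1 and Atf6 without telling the delivered from the endogenous form: Xbp1 was at 107 ± 12.2, 163 ± 3.94 and 148 ± 4.76 CPM and Atf6 at 57.7 ± 18.1, 94.0 ± 24.0 and 160 ± 2.98 CPM in AAV-GFP, AAV-XBP1S and AAV-ATF6N. Against AAV-GFP, Atf6 in AAV-ATF6N had a log2 fold change of 1.47 (adjusted p = 0.126) and missed the threshold, as did Xbp1 in AAV-XBP1S (0.61, adjusted p = 0.307), which passed under 0 of 12 alternatives. Atf6 in AAV-ATF6N passed under 5 of 12 alternatives, with adjusted p from 0.000478 to 0.768.

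Of 22 tested ATF4 and ATF4-target genes outside the 8, edgeR called 0 in AAV-XBP1S and 1 in AAV-ATF6N. The median log2 fold changes were -0.19 and 0.16, beside -0.01 and -0.02 for all genes. At an unadjusted p below 0.05 the counts were 10 and 9, against 11.6% and 13.5% of all genes. DESeq2 called 5 and 6, where it called 520 of 14587 and 595 of 14304 genes in all. Those in AAV-XBP1S were Atf3, Chac1, Cebpb, Nupr1 and Aldh18a1. Those in AAV-ATF6N were Atf3, Chac1, Nupr1, Gdf15, Pycr1 and Aldh18a1. The gene that rose was Atf3, itself a stress-induced transcription factor, at 80.8 ± 1.43 CPM in AAV-ATF6N and 31.9 ± 2.00 in AAV-GFP (log2 fold change 1.34, SE 0.19, adjusted p = 0.048). It missed without AAV-GFP replicate 1 (adjusted p = 0.0562), and over 12 alternatives its adjusted p ran from 2.17e-07 to 0.593. In AAV-XBP1S, Chac1, a glutathione-degrading enzyme, and Cebpb stood below AAV-GFP in both libraries (log2 fold changes -1.72 and -1.84, adjusted p = 0.0597 and 0.0629). Nupr1 stood at 9.31 ± 1.75 CPM in AAV-ATF6N and 1.55 ± 0.700 in AAV-GFP (2.58, adjusted p = 0.0539). Against AAV-XBP1S, both AAV-ATF6N libraries were higher for 15 of the 22 genes (30.1% of all genes) and lower for 5 (26.8% of all genes), with a median of 0.49. There edgeR called 0 and DESeq2 4 (Ddit3, Cebpb, Ppp1r15a and Gdf15), where DESeq2 called 839 of 14587 genes in all. An unadjusted p below 0.05 was found for 8 (13.2% of all genes). Gdf15 (2.31) and Cebpb (1.88) had an edgeR adjusted p of 0.0579 each. Fgf21, a hormone listed here after its values were seen, had 0 counts in all 4 libraries of AAV-GFP and AAV-XBP1S and 24 and 10 counts in AAV-ATF6N. It is 1 of the 22 genes and of the 15 higher ones, and it passed the filter only through AAV-ATF6N. Its place among the 15 was thus fixed in advance.

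Among 13 aminoacyl-tRNA synthetases and tRNA export genes, which ATF4 also controls, 0 passed in any comparison with edgeR or DESeq2, and 1, in AAV-ATF6N against AAV-GFP, had an unadjusted p below 0.05. In AAV-ATF6N both libraries lay above AAV-GFP for 9 of 13 (27.9% of all genes), with a median log2 fold change of 0.21. The same count held against AAV-XBP1S (30.1% of all genes), with a median of 0.26. Eprs stood at 214 ± 2.18 CPM in AAV-ATF6N and 149 ± 16.2 in AAV-GFP (log2 fold change 0.52, adjusted p = 0.349), and Iars at 131 ± 4.76 and 69.5 ± 43.1 (0.91, adjusted p = 0.390). The Iars value moved with the control library, to 0.39 without AAV-GFP replicate 1 and 1.75 without AAV-GFP replicate 2.

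Enzymes and carriers around the 8 were covered by 5 lists with 55 tested genes, of which edgeR called 0 in each comparison. At an unadjusted p below 0.05 there were 6 in AAV-XBP1S, 4 in AAV-ATF6N and 6 in the direct comparison, against 11.6%, 13.5% and 13.2% of all genes. DESeq2 called 0, 0 and 2 (Aldh1l1 and Sfxn1, both lower in AAV-ATF6N). Over all genes it called 520 of 14587, 595 of 14304 and 839 of 14587. Of 11 genes of the cytosolic folate cycle 0 passed, with medians of 0.14 in AAV-XBP1S and -0.04 in AAV-ATF6N. Thymidylate synthase, Tyms, stood at 6.53 ± 0.871 CPM in AAV-XBP1S and 2.26 ± 1.37 in AAV-GFP (log2 fold change 1.52, adjusted p = 0.291). Of 10 genes of mitochondrial folate and glycine cleavage 8 were tested and 0 passed (medians 0.29 and 0.17). There, Sfxn1, the mitochondrial serine transporter, was at 11.1 ± 2.10 CPM in AAV-XBP1S and 5.55 ± 0.578 in AAV-ATF6N (-0.998, adjusted p = 0.158), and Slc25a32, the folate carrier, at 10.8 ± 0.158 CPM in AAV-ATF6N and 6.38 ± 2.57 in AAV-GFP (0.76, adjusted p = 0.382). The Slc25a32 value moved with the control library, to 0.40 without AAV-GFP replicate 1 and 1.26 without AAV-GFP replicate 2. Gldc, the glycine decarboxylase, had at most 18 counts in any library.

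Of 16 genes of the methionine cycle, transsulfuration and glutathione synthesis 12 were tested and 0 passed, with medians of -0.08 in AAV-XBP1S and 0.40 in AAV-ATF6N. Gclm, a subunit of glutamate-cysteine ligase, stood at 31.5 ± 0.431 CPM in AAV-ATF6N and 20.7 ± 2.51 in AAV-GFP (0.61, adjusted p = 0.314), and Cth, which releases cysteine from cystathionine, at 0.455 ± 0.0367 and 1.16 ± 0.488 (-1.35, adjusted p = 0.358). Of 12 genes of serine uptake and use 11 were tested and 0 passed (medians 0.01 and 0.25). The neutral amino acid transporters Slc38a1 and Slc38a2 were at 44.1 ± 0.702 and 412 ± 28.6 CPM in AAV-ATF6N against 27.5 ± 2.44 and 207 ± 104 in AAV-GFP (0.68 and 0.99, adjusted p = 0.253 and 0.371). For Slc38a2 the log2 fold change was 0.55 without AAV-GFP replicate 1 and 1.63 without AAV-GFP replicate 2. In AAV-XBP1S it was Slc1a5, a glutamine and neutral amino acid transporter, that had the smallest p of this list, at 20.4 ± 1.32 CPM against 13.7 ± 1.38 (0.58, adjusted p = 0.373). De novo purine synthesis, which uses the formate, had 0 of 13 past the threshold, with a median of 0.12 in both treated groups. Impdh2, the enzyme that opens the guanine branch, stood at 9.72 ± 0.0674 CPM in AAV-ATF6N and 14.2 ± 2.77 in AAV-GFP (-0.55, adjusted p = 0.382).

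Replication consumes thymidylate and purines, and the list of cell cycle and DNA replication genes had the most calls of the lists. In AAV-XBP1S 3 of 17 rose, Ccna2 (3.70 ± 1.01 CPM against 0.331 ± 0.00817, log2 fold change 3.48, adjusted p = 0.0235), Birc5 (2.89 ± 0.498 against 0.283 ± 0.00277, 3.35, adjusted p = 0.0301) and Mki67 (5.71 ± 1.90 against 0.803 ± 0.173, 2.83, adjusted p = 0.0447). In AAV-ATF6N 3 rose, Ccna2 (3.12, adjusted p = 0.0298), Birc5 (2.87, adjusted p = 0.0401) and Top2a (6.73 ± 0.942 CPM against 0.331 ± 0.266, 4.38, adjusted p = 0.0462). Mki67 and Top2a are named after their values were seen. DESeq2 called 10 and 8 of the 17, where it called 520 of 14587 and 595 of 14304 genes in all. Both libraries lay above AAV-GFP for 15 of the 17 in each treated group, against 19.1% and 27.9% of all genes, with medians of 1.49 and 1.08. Over 12 alternatives Ccna2 passed in 7 in each comparison, with adjusted p up to 0.216 and 0.215, while Birc5 passed in 7 in AAV-XBP1S and 6 in AAV-ATF6N, where it missed without AAV-GFP replicate 1 (0.0554). Mki67 passed in 6, missing without AAV-GFP replicate 1 (0.0651), and Top2a in 7, with a log2 fold change from 3.69 to 5.56. Ccna2, Birc5, Mki67 and Top2a each missed when any library of AAV-XBP1S or AAV-ATF6N was left out.

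**Figure D5:**
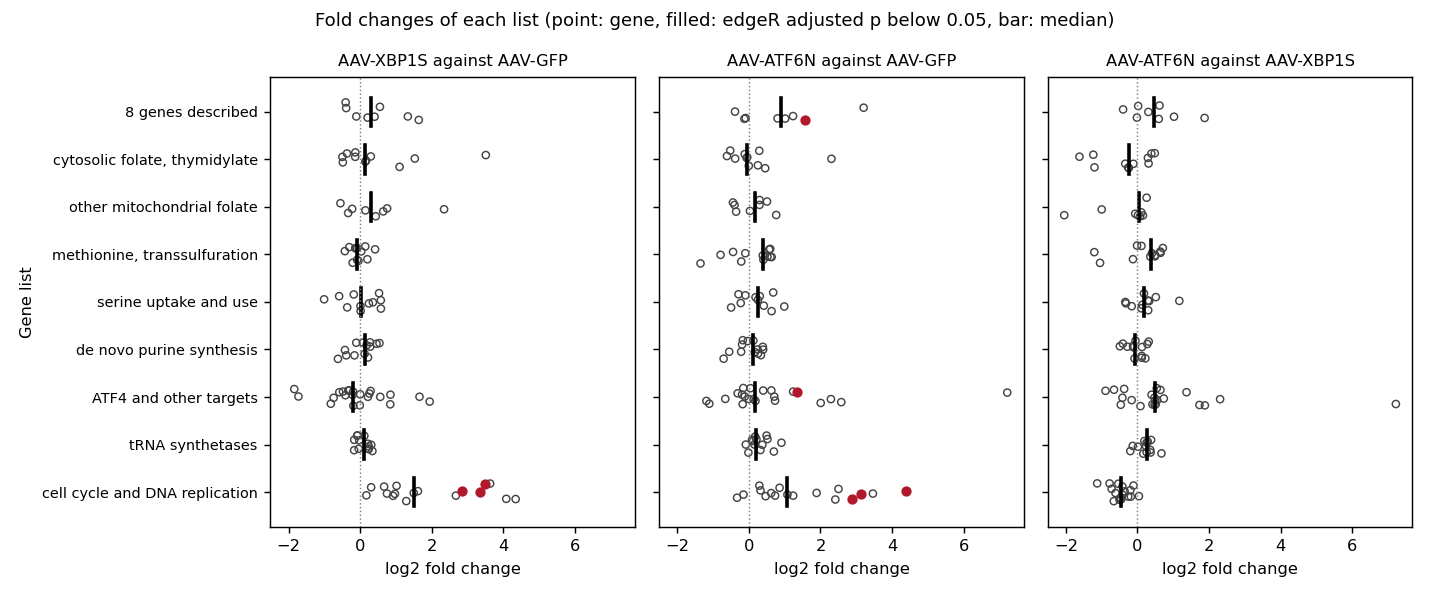
Fitted log2 fold changes (x axis) of the tested genes of each list (y axis) in the 3 comparisons; points are genes, filled ones have an edgeR adjusted p below 0.05 and bars are medians. Cell cycle genes lie to the right in both comparisons with GFP (medians 1.49 and 1.08), and the far right point of the ATF4 list is Fgf21, whose fitted value rests on groups with 0 counts.

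Markers of other cells of the heart also differed by group. The 6 fibroblast markers summed to 447 to 574 CPM in AAV-GFP, 777 to 913 in AAV-XBP1S and 761 to 796 in AAV-ATF6N, and the 6 macrophage and leukocyte markers to 25.5 to 27.8, 39.7 to 41.5 and 38.4 to 40.2. Endothelial markers summed to 387 to 702, 698 to 1095 and 434 to 478 CPM, and smooth muscle and pericyte markers to 764 to 844, 856 to 933 and 956 to 975. A sum follows its most abundant genes. Of the 6 smooth muscle and pericyte markers, 3 had a log2 fold change above 0 in AAV-ATF6N against AAV-GFP (median -0.04). Against AAV-XBP1S 1 of the 6 did (median -0.48). In AAV-ATF6N both libraries lay below both AAV-XBP1S libraries for 6 of 6 endothelial markers. Over AAV-GFP, 6 of these had a log2 fold change above 0 in AAV-XBP1S and 1 in AAV-ATF6N. For fibroblast markers the counts above 0 were 6 and 5 of 6, and for macrophage and leukocyte markers 6 and 4 of 6. Both libraries lay above AAV-GFP for 4 and 4 fibroblast markers and 2 and 4 macrophage and leukocyte markers. None of these 4 lists had a marker at 0 in a whole group, and edgeR called 0 of their 24 genes in any comparison. At an unadjusted p below 0.05 there were 9 in AAV-XBP1S, 10 in AAV-ATF6N and 8 in the direct comparison, against 11.6%, 13.5% and 13.2% of all genes. DESeq2 called 2, 3 and 6, where it called 520 of 14587, 595 of 14304 and 839 of 14587 genes in all. Of the erythroid markers 4 of 5 were in the table, 2 of them at 0 in each group, and their sum was 130.2 to 277, 69.5 to 106 and 40.7 to 41.7 CPM. Alas2, named after its values were seen, fell in AAV-ATF6N (log2 fold change -1.75, adjusted p = 0.047) and did so in 7 of 12 alternatives, with adjusted p up to 0.593. The fibroblast and macrophage sums were higher in both treated groups, as were Phgdh, Psat1, Shmt1 and the cell cycle genes, and their part in those differences was not tested. In RNA pooled from many cells, fewer cells of a type and less RNA per cell cannot be told apart.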

How the data were processed

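Polyadenylated RNA of sorted mouse cardiomyocytes was made into cDNA with the SMART-Seq v4 kit and into libraries with Nextera XT, per the labels' protocols, while a description names SMART-Seq2. The authors' deposited count table holds whole-number read counts and exon lengths for 23337 genes, for which the submitters' processing notes name STAR, featureCounts and mm10. No source used here gives versions or the annotation. The authors' deposited tables of both comparisons with AAV-GFP hold, per the file headers, a mean normalized signal, log2 fold changes, scores (standard error and Wald statistic) and p-values. They were used for the 8 genes only and for their share of genes below the threshold.

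The members and lists were chosen with earlier results of these data known. Genes were kept by filterByExpr (count minimum 10), which left 14587. edgeR 4.0.16 (R 4.3.3) with TMM normalization fitted a quasi-likelihood model with the group as its only term to all 6 libraries (3 residual degrees of freedom), with Benjamini-Hochberg adjustment and a threshold of 0.05. The standard error is the log2 fold change divided by the square root of F. The script was tested on simulated data. Groups come from the labels. Named genes are the 8, Atf4, Xbp1, Atf6, up to 2 genes of smallest p per pathway list and comparison with at least 1 CPM in a group, and the 2 nearest in pattern to each member (log2 CPM, prior count 2). Alternatives were DESeq2 1.42.0, RLE factors, no filter, only the libraries compared, the replicate number as a block, a gene-length offset and leaving out each library. Overlaps of exons come from the GENCODE annotation and the count table, and promoter windows from RefSeq. The depth was 67702482 to 112049342 counts per library. No source used here names molecular identifiers.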

Additional observations from a re-analysis of the deposited data

How the results depend on the processing

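With 2 libraries a group, calls moved more than fold changes. Of the fold changes of the 8 genes, 247 of 288 recomputed values kept their sign and their side of the threshold, 19 newly passed, 5 no longer passed and 17 turned sign, all of these in Psph, Mthfd1l, Shmt2 or Aldh1l2 and none past the threshold in the fit reported. The number of the 8 that passed in AAV-XBP1S against AAV-GFP (0 as reported) was 1 with DESeq2, without a filter on low counts and with a gene-length offset. In AAV-ATF6N against AAV-GFP (1 as reported) it was 3 with DESeq2, 2 without the filter and with the gene-length offset, 0 with only the libraries compared and 0 to 2 with 1 library left out (2 without either AAV-GFP library, 0 without any other). In AAV-ATF6N against AAV-XBP1S (0 as reported) it was 2 with DESeq2 and with only the libraries compared, 1 with the gene-length offset and 0 to 2 with 1 library left out (2 without either AAV-GFP library). RLE factors changed none of the 3 counts.

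Over the whole table the calls in the same order of comparisons (46, 75 and 33 as reported) were 520, 595 and 839 with DESeq2, 233, 348 and 458 without the filter, 13, 8 and 663 with only the libraries compared and 267, 215 and 605 with the gene-length offset. Leaving out 1 library gave 2 to 322, 6 to 3055 (without AAV-GFP replicate 2) and 1 to 717. In AAV-ATF6N against AAV-XBP1S 75.8% of the calls were higher as reported, 38.3% with DESeq2 and 36.9% with the gene-length offset. The cause was not tested. Where a group keeps 1 library, that library is assumed to vary like the others.

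Signs turned with the gene-length offset for Psph (0.065, 0.17 and 0.11 in the 3 comparisons), for Mthfd1l between AAV-ATF6N and AAV-XBP1S (-0.20) and for Atf4 in AAV-ATF6N (0.13). With 1 library left out the log2 fold change ran, in the same order, from -0.35 to 0.23, -0.39 to 0.22 and -0.13 to 0.059 for Psph, from -0.94 to 0.47, -0.92 to 0.47 and -0.13 to 0.16 for Mthfd1l and from -0.52 to 0.27, -0.45 to 0.36 and -0.11 to 0.27 for Atf4. For Aldh1l2 in AAV-XBP1S it ran from -0.54 to 1.29 and for Shmt2 in AAV-ATF6N from -0.18 to 0.018.

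The labels do not say that equal replicate numbers share a source. Same-numbered libraries of AAV-GFP and AAV-XBP1S deviated together (r = 0.379 over genes), while those of AAV-ATF6N with either did not (-0.0402 and -0.048). With the replicate block 0, 2 and 0 of the 8 passed, and 165, 237 and 356 genes in all. Phgdh in AAV-ATF6N then had 3.24 (edgeR adjusted p = 0.0199).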
